A study of Caenorhabditis elegans with 8 samples.

Results

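The genes described here are the 5 cyclins and 3 cyclin-dependent kinases (CDKs) that drive the cell division cycle of Caenorhabditis elegans. The cyclins are cyd-1 (cyclin D), cye-1 (cyclin E), cya-1 (cyclin A), cyb-1 (cyclin B1) and cyb-3 (cyclin B3), and the kinases are cdk-4, cdk-2 and cdk-1. They were chosen by name: 7 of the 8 stand under these names in the poly(A) table of 44968 genes, and cya-1, which that table lists only as ZK507.6, was matched through its RefSeq locus tag. All 8 are among the 25640 genes of the rRNA-depleted table. Young adult worms labelled RNAi CstF50 and young adults labelled wild type were compared, both grown in synchronized liquid culture. CstF50, encoded by cpf-1, belongs to the complex that helps cleave pre-mRNAs ahead of polyadenylation. The headers of the poly(A) values name the wild-type strain N2 on the empty feeding vector L4440 and cpf-1 RNAi, and no further allele is given. The 8 libraries were 2 of each group from poly(A)-selected RNA and 2 of each from rRNA-depleted total RNA.

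A cyclin binds a CDK and switches it on, and the level of each cyclin rises and falls within the division cycle through transcription and timed destruction. Cyclin D with CDK-4 acts at the start of the cycle, cyclin E with CDK-2 at the entry into DNA synthesis, and cyclin A and the B cyclins with CDK-1 at the entry into and passage through mitosis and meiosis. In an adult hermaphrodite the somatic cells no longer divide, the germline does, and oocytes store maternal mRNA of the mitotic cyclins for the first divisions of the embryo.

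The deposited tables give group values, not values per library. For poly(A) RNA there is 1 FPKM (fragments scaled by transcript length and by sequencing depth) per group, with no spread of its own and unknown depth. For rRNA-depleted RNA there is a mean normalized count for a condition B and a condition A, and the header does not say which of them is wild type. Values of that table are therefore given as B against A, with no treatment assigned. Whole counts per library could be recovered from these means, and they summed to 35793329 and 15120881 in B and to 8287830 and 2852379 in A over the genes for which this was possible. The targeted gene, cpf-1, had 67.8 FPKM in the poly(A) group labelled CstF50 RNAi and 50.5 FPKM in wild type in the authors' deposited table (q-value 0.613), so it was not lower there. In the rRNA-depleted comparison of the authors' deposited table it had 8662 normalized counts in B against 1695 in A, a 5.11-fold higher level in B (adjusted p-value 0.00296). Directions below are those of the labels, which the cpf-1 value does not check.

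In poly(A) RNA, cyclin E was the 1 gene of the set that passed the authors' test. Its gene cye-1 was 4.24-fold lower in the group labelled CstF50 RNAi in the authors' deposited table, and 6 of the other 7 genes also had the lower FPKM there, 5 tested without passing and 1, cdk-2, not tested. The exception was cyb-1, which had the higher FPKM in the RNAi group. Fewer dividing cells and less RNA per cell cannot be told apart in such whole-animal libraries. The authors' Cuffdiff-style comparison called 16.8% of 8513 tested genes at a q-value under 0.05, 13.6% lower and 3.12% higher, so 1 call among 7 tested members is near that background. Of the same 8513 genes, 8244 had both values above 0, and 81.3% of these had the lower FPKM in the RNAi group, with a median log2 fold change of -0.90. The median of the 7 tested members was -0.94.

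**Figure D1:**
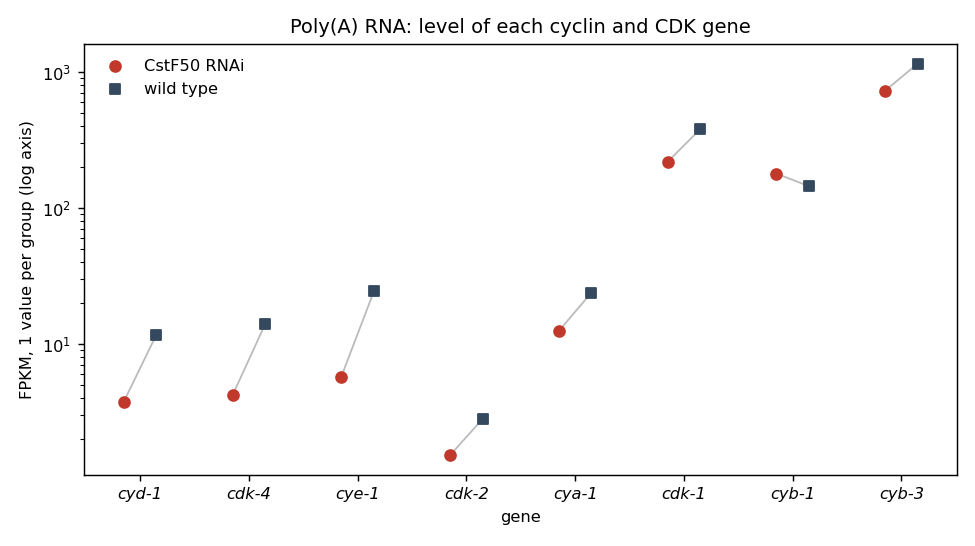
FPKM of each gene in poly(A) RNA on a log axis, 1 value per group: circles are CstF50 RNAi and squares wild type, with the genes ordered from the start of the division cycle to mitosis. The mitotic genes cyb-3, cdk-1 and cyb-1 lie above 100 FPKM in both groups and the other 5 genes below 30 FPKM, and cyb-1 alone is higher in CstF50 RNAi.

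The genes that act at the start of the cycle were among the lowest of the set. In the authors' deposited table cyd-1, the D-type cyclin that commits cells to division, had 3.78 FPKM in CstF50 RNAi and 11.7 FPKM in wild type. Its log2 fold change was -1.63 (implied standard error, SE, 0.66), and the q-value, 0.0675 in the authors' deposited table, missed the threshold. The implied SE is the one at which a normal test of the fold change returns the p-value the authors give, and no other error is available for poly(A) values. The kinase gene cdk-4, whose product pairs with cyclin D, had 4.22 FPKM in CstF50 RNAi and 14.03 FPKM in wild type in the authors' deposited table (log2 fold change -1.73, implied SE 0.89, q-value 0.153). Both genes of this pair thus had about the same fold change, and neither passed.

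At the step into DNA synthesis the cyclin gene had several times the FPKM of its kinase gene in both groups. The authors' deposited table lists cye-1 at 5.77 FPKM in CstF50 RNAi and at 24.5 FPKM in wild type, which is -2.08 in log2 (implied SE 0.57, q-value 0.00626). Adjusted over all 44968 rows, untested ones included, it still passed (Benjamini-Hochberg adjusted p = 0.0321). Taken relative to the median gene its log2 difference was -1.19, and a normal test with Benjamini-Hochberg adjustment over the tested genes, which called 6.15% of them, no longer called it (adjusted p = 0.279). The kinase gene cdk-2 had 1.53 FPKM in CstF50 RNAi and 2.83 FPKM in wild type in the authors' deposited table, which gave it the status NOTEST, so its log2 fold change of -0.89 is a description. No row of that status exceeded 6.59 FPKM in either group.

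Cyclin A, which acts from DNA synthesis into mitosis, had a fold change close to the median of all genes. Its gene cya-1 had 12.5 FPKM in CstF50 RNAi and 23.9 FPKM in wild type in the authors' deposited table (log2 fold change -0.94, implied SE 0.54, q-value 0.205). Its locus in the table also covers dos-1, ZK507.7 and a tRNA gene, and dos-1 had 5.68 FPKM in CstF50 RNAi and 6.37 FPKM in wild type in the authors' deposited table. The sources used here do not say how reads of overlapping genes were divided.

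The mitotic genes were the most abundant of the set. In the authors' deposited table cyb-3, a B-type cyclin needed for chromosome segregation in the early embryo, had 727 FPKM in CstF50 RNAi and 1150 FPKM in wild type (log2 fold change -0.66, implied SE 0.47, q-value 0.305). That level lay above 96.1% of the tested genes in CstF50 RNAi and above 96.7% in wild type. The kinase gene cdk-1, whose product drives entry into M phase, had 218 FPKM in CstF50 RNAi and 379 FPKM in wild type in the authors' deposited table (log2 fold change -0.80, implied SE 0.46, q-value 0.204). The other B cyclin gene, cyb-1, went against the rest, at 179 FPKM in CstF50 RNAi and 145 FPKM in wild type in the authors' deposited table (log2 fold change 0.31, implied SE 0.45, q-value 0.629). Relative to the median gene cyb-1 was at 1.204 on the log2 scale, the furthest above it of the 7 tested members (adjusted p = 0.0976 by the same normal test). On that scale cdk-1 and cyb-3 turned to 0.10 and 0.23, and none of the 7 passed.

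**Figure D2:**
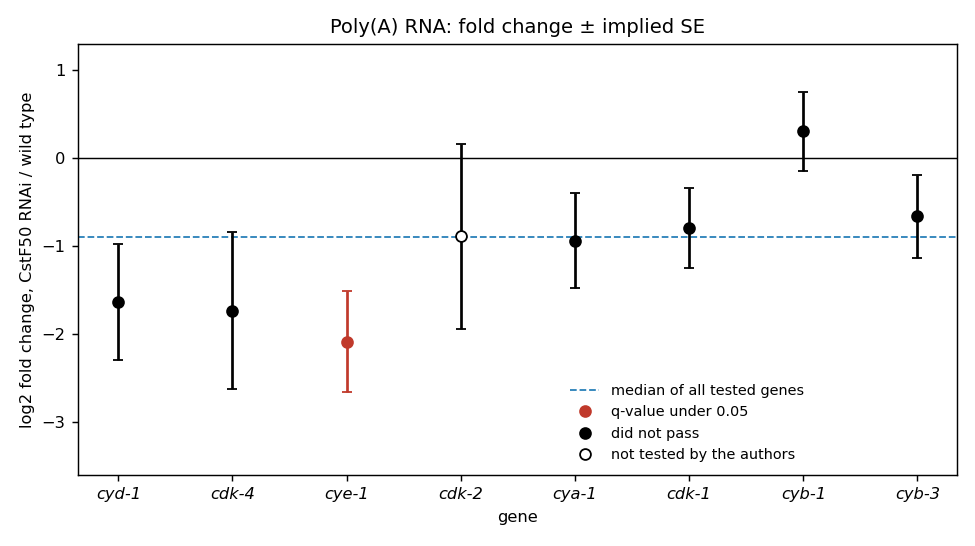
Log2 fold change of each gene in poly(A) RNA, CstF50 RNAi over wild type, with the implied SE as bars; the dashed line is the median of all tested genes at -0.90. The red point, cye-1 at -2.08, passed the authors' test, the open point, cdk-2, was not tested, and cyb-1 at 0.31 is the 1 point above 0.

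The order of levels in poly(A) RNA was nearly the same in both groups. From the highest FPKM down it ran cyb-3, cdk-1, cyb-1, cya-1, cye-1, cdk-4, cyd-1 and cdk-2 in CstF50 RNAi, and in wild type cye-1 and cya-1 changed places. With 1 value per group, whether neighbours in this order differ beyond their spread cannot be told. The 3 mitotic genes made up nearly all of the summed FPKM: cyb-3 took 63.1% of it in CstF50 RNAi and 65.7% in wild type, and cyb-1 took 15.5% in CstF50 RNAi and 8.26% in wild type. The summed FPKM of the 8 genes was 1152 in CstF50 RNAi and 1750 in wild type.

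In rRNA-depleted RNA none of the 8 genes passed the authors' DESeq test between conditions B and A, against 8.31% of all 25640 genes. Unadjusted p-values under 0.05 stood beside 2 of the 8 in the authors' deposited table, cdk-4 (0.0233) and cyb-1 (0.0265). The 8.31% is the share after adjustment, and the share of all genes without it is not given. A second test, limma-voom on the recovered counts with Benjamini-Hochberg adjustment over 25367 genes, called 4 of the 8, against 23.2% of all genes. Restricted to genes with a mean of at least 10 normalized counts, as all 8 have, it called the same 4 members and 5552 of 15331 genes. By that test cdk-1 and cdk-4 were lower in B (10.5% of all genes were) and cyb-1 and cya-1 were higher (12.7% were). With 1 library left out at a time, the limma-voom log2 fold change of cdk-1 ran from -0.48 to -0.38. That of cdk-4 ran from -1.13 to -0.69, that of cyb-1 from 0.41 to 0.55 and that of cya-1 from 0.38 to 0.70. Calls of these fits are not used here, since 1 condition then has only 1 library. Library numbers here order the 2 libraries of a condition by size factor and are not the replicate numbers of the labels.

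For each of the 8 genes both libraries of B lay on the same side of both libraries of A, which was also so for 58.2% of the 25367 genes and for 71.5% of the 15331 genes with a mean of at least 10 normalized counts. In 4 genes B was below A, namely the 3 kinase genes and cye-1, against 32.0% of the 15331 genes. In 4 genes, the other cyclins, B was above A, against 39.5%. With 2 libraries against 2 an exact 2-sided permutation test of a single gene cannot go below p = 0.333, so none is given.

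**Figure D3:**
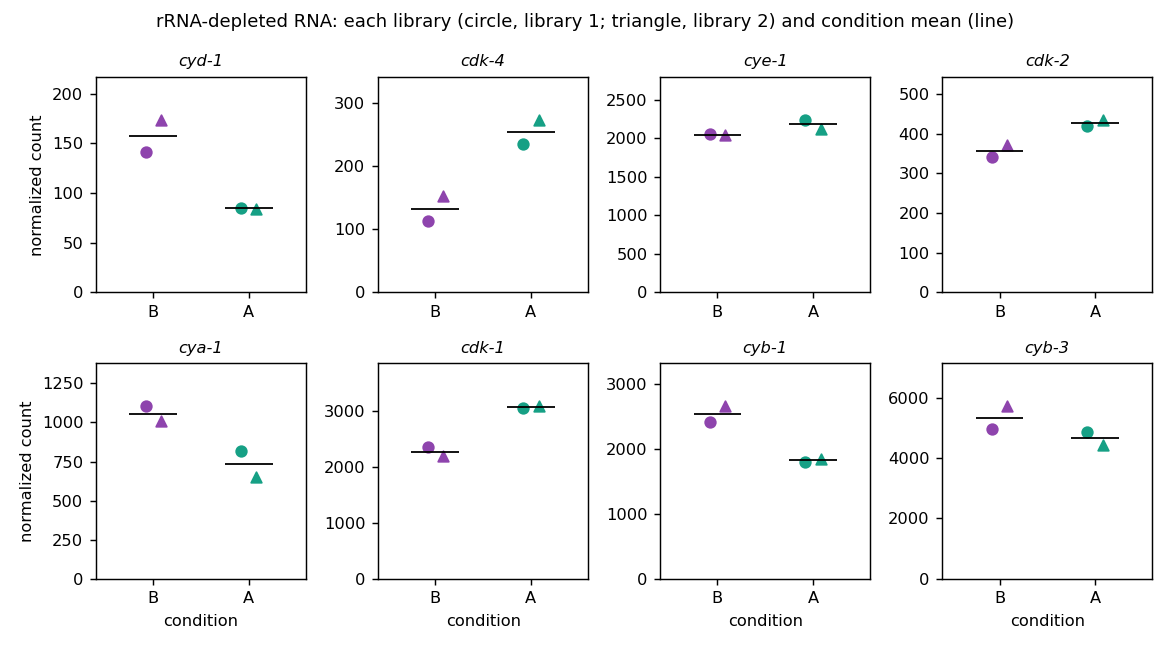
Normalized counts of each gene in every rRNA-depleted library, condition B left and condition A right, on linear axes that start at 0; circles are library 1, triangles library 2 and lines the condition means. The points of B lie below those of A for cdk-4, cye-1, cdk-2 and cdk-1 and above them for cyd-1, cya-1, cyb-1 and cyb-3, narrowly for cyb-3.

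The cyclin D and CDK-4 genes differed in opposite directions between the conditions, cyd-1 without passing either test. The normalized count of cyd-1 was 141 and 173 in the libraries of B and 85.3 and 84.3 in those of A. Both libraries of B were higher, yet the counts behind these values were 512 and 267 in B and only 63 and 21 in A. The 95% Poisson interval of the value from 21 counts ran from 52.2 to 129 normalized counts, and it covers counting error only. In the authors' deposited table the log2 fold change of cyd-1 was 0.89 (adjusted p-value 0.381), and by limma-voom it was 0.82 (SE 0.32, adjusted p = 0.0784). For cdk-4 the libraries of B had 113 and 153 normalized counts and those of A had 236 and 273. It was 1.92-fold lower in B in the authors' deposited table (adjusted p-value 0.188), and its log2 fold change was -0.98 by limma-voom (SE 0.24, adjusted p = 0.00688).

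The cyclin E and CDK-2 genes differed little between the conditions. The gene cye-1, which was lower in poly(A) RNA of the RNAi group, had 2052 and 2037 normalized counts in the libraries of B and 2233 and 2124 in those of A. In the authors' deposited table its log2 fold change was -0.09 (adjusted p-value 1), and by limma-voom it was -0.10 (SE 0.09, adjusted p = 0.475). Its locus also holds a tRNA gene, C37A2.t1, which the authors' deposited table lists with a mean of 89.4 normalized counts in B, against 89.5 in A. The values of cdk-2 were 341 and 371 normalized counts in B and 420 and 434 in A, a log2 fold change of -0.27 (SE 0.18, adjusted p = 0.31) by limma-voom. Although cdk-2 was not tested by the authors in poly(A) RNA, it had 1240 and 572 counts in the libraries of B and 310 and 108 in those of A.

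Among the genes that act later, cya-1 and cyb-1 were higher in B and cdk-1 was lower, by limma-voom but not by the authors' test. The gene cya-1 had 1102 and 1007 normalized counts in the libraries of B and 818 and 650 in those of A, a log2 fold change of 0.49 (SE 0.15, adjusted p = 0.0225 by limma-voom, adjusted p-value 0.48 in the authors' deposited table). The libraries of B had 2416 and 2650 normalized counts of cyb-1 and those of A had 1803 and 1839. Its log2 fold change was 0.45 by limma-voom (SE 0.10, adjusted p = 0.00406), while the authors' deposited table has an adjusted p-value of 0.204. For cyb-1 the libraries of each condition lay much closer together than the conditions did, while the 2 libraries of A differed in cya-1 by nearly as much as the higher of them and the lower library of B. The kinase gene cdk-1 had 2358 and 2198 normalized counts in B and 3063 and 3087 in A, a log2 fold change of -0.41 by limma-voom (SE 0.09, adjusted p = 0.00223), and its adjusted p-value is 0.314 per the authors' deposited table. For cyb-3 the values were 4978 and 5714 in B and 4885 and 4432 in A, and the 2 nearest libraries of the conditions differed by less than the libraries of either condition. Neither test called it (adjusted p = 0.292 by limma-voom, adjusted p-value 1 in the authors' deposited table).

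Per kilobase of exon (Ensembl annotation of WBcel235) the order of levels in rRNA-depleted RNA was fixed at the top. In each of the 4 libraries it ran cyb-3, cdk-1, cyb-1, cye-1 and cya-1 from the highest down, and cyd-1 was last. The cdk-2 and cdk-4 genes changed places: cdk-2 had 147 and 159 normalized counts per kilobase in B, above cdk-4 with 91.5 and 124. In A cdk-2 had 180 and 186 per kilobase, below cdk-4 with 191 and 222. No neighbours in this order overlapped between their 2 libraries within a condition, the closest as a ratio being cyb-1 at 1066 and 1087 and cye-1 at 1056 and 1005 per kilobase in A. In poly(A) RNA, normalized separately, cdk-2 was last.

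The ratio of a cyclin to its kinase, each per length, shows these shifts within a library, where scaling cancels. The cyd-1 to cdk-4 ratio was 0.766 and 0.695 in the libraries of B and 0.222 and 0.189 in those of A, while in poly(A) RNA the FPKM ratio was 0.897 in CstF50 RNAi and 0.837 in wild type. The cyb-1 to cdk-1 ratio was 0.718 and 0.845 in B and 0.412 and 0.417 in A, and the FPKM ratio was 0.819 in CstF50 RNAi and 0.381 in wild type. The cya-1 to cdk-2 ratio was 3.61 and 3.03 in B and 2.18 and 1.68 in A, the cya-1 to cdk-1 ratio was 0.266 and 0.261 in B and 0.1518 and 0.1198 in A, and the cyb-3 to cdk-1 ratio was 1.71 and 2.11 in B and 1.29 and 1.16 in A. The cye-1 to cdk-2 ratio was 6.62 and 6.04 in B and 5.86 and 5.40 in A, and its FPKM ratio was 3.77 in CstF50 RNAi and 8.64 in wild type, with cdk-2 untested there. All 6 cyclin to kinase ratios computed were thus higher in both libraries of B than in both of A. For every pair but cye-1 to cdk-2 this follows from the kinase gene being lower and the cyclin gene higher in B. Several pairs share a gene, so they are not separate observations, and no share over other gene pairs is given. Between the B cyclins, the cyb-3 to cyb-1 ratio was 2.39 and 2.50 in B and 3.14 and 2.79 in A, and the FPKM ratio was 4.06 in CstF50 RNAi and 7.95 in wild type. These ratios were not tested.

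**Figure D4:**
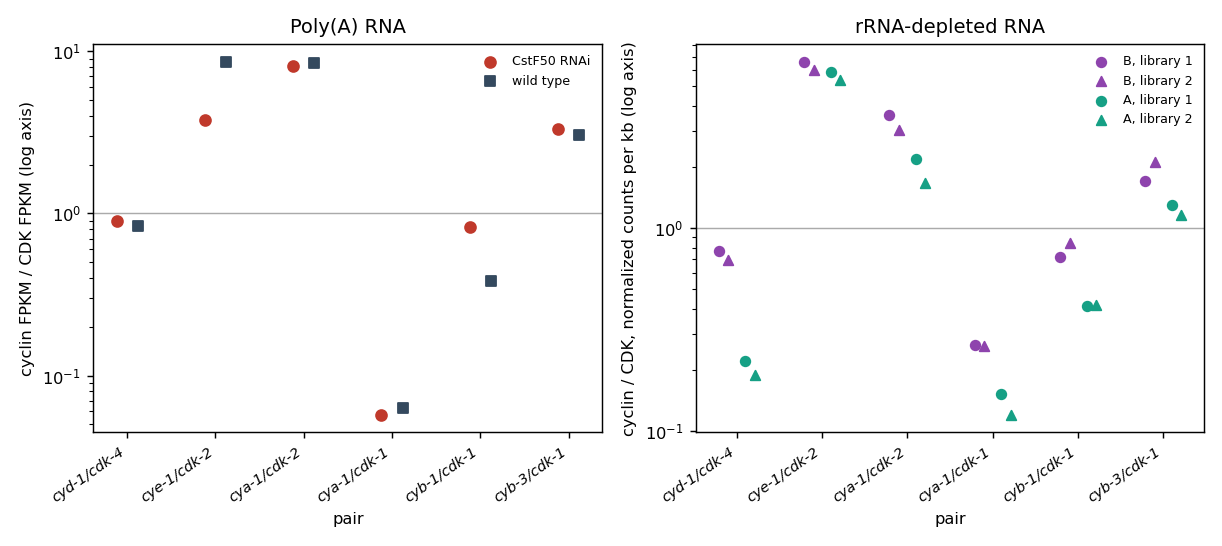
Ratio of cyclin to kinase level, per length, on log axes: FPKM in the 2 poly(A) groups on the left, and normalized counts per kilobase in the 4 rRNA-depleted libraries on the right. Every cyclin to kinase ratio of both B libraries lies above those of both A libraries, by the least for cye-1 to cdk-2 (6.62 and 6.04 against 5.86 and 5.40), and the largest gap in poly(A) RNA is in cye-1 to cdk-2 (3.77 and 8.64) and cyb-1 to cdk-1 (0.819 and 0.381).

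The wider cell cycle machinery, 91 genes in 6 lists, had a median fold change like that of all genes in poly(A) RNA. Of 83 tested genes 2 were called higher and 16 lower in CstF50 RNAi and 65 did not pass in the authors' deposited table, where 3.12% of all tested genes were called higher and 13.6% lower. The median log2 fold change of the 83 was -0.98, beside -0.90 for all tested genes. Measured against the median gene, 4 of the 83 passed as higher and 0 as lower by the normal test (5.64% and 0.509% of all genes): lin-23, pri-2, air-1 and psf-3. Of these air-1 and psf-3 were named after their values were seen.

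The counts of the single lists are small and are given as descriptions, beside 3.12% of all tested genes called higher and 13.6% called lower. Among the other cyclins and CDK partners 2 of 4 tested genes fell. They were cks-1, a small subunit that binds CDKs, with 145 FPKM in CstF50 RNAi and 503 FPKM in wild type (q-value 0.0251), and the B cyclin gene cyb-2.2 with 79.8 FPKM in CstF50 RNAi and 237 FPKM in wild type (q-value 0.0141), both in the authors' deposited table. Its close copy cyb-2.1 had 52.5 FPKM in CstF50 RNAi and 115 FPKM in wild type (q-value 0.0981) in the authors' deposited table. The cyb-2 copies are similar enough that reads may have been shared between them, so their single values are uncertain.

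Of 6 tested genes for CDK inhibitors, Wee1 kinases and Cdc25 phosphatases 2 fell, an inhibitor and an activator of CDKs. In the authors' deposited table the CDK inhibitor gene cki-2 had 18.4 FPKM in CstF50 RNAi and 61.3 FPKM in wild type (q-value 0.0479), and the phosphatase gene cdc-25.1, whose product activates CDKs in the germline, had 38.6 FPKM in CstF50 RNAi and 103 FPKM in wild type (q-value 0.0251). In the Rb and E2F list 2 of 8 fell: dpl-1, which encodes the partner of E2F, with 11.1 FPKM in CstF50 RNAi and 47.2 FPKM in wild type, and lin-37, of the DREAM complex, with 41.7 FPKM in CstF50 RNAi and 117 FPKM in wild type in the authors' deposited table.

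The ubiquitin ligases that destroy cyclins and other regulators had 1 higher and 3 lower of 18 tested genes. The F-box gene lin-23, a negative regulator of cell division, had 13.5 FPKM in CstF50 RNAi and 3.14 FPKM in wild type (q-value 0.00122 in the authors' deposited table). Lower were sel-10, apc-10 and cul-2, with 13.2, 25.6 and 13.9 FPKM in CstF50 RNAi and 39.6, 73.8 and 34.6 FPKM in wild type in the authors' deposited table. Among 25 DNA replication genes 1 was higher, the primase gene pri-2 with 54.5 FPKM in CstF50 RNAi and 9.61 FPKM in wild type, and 4 were lower in the authors' deposited table. Among the lower ones, orc-5, of the origin recognition complex, had 68.6 FPKM in CstF50 RNAi and 460 FPKM in wild type in the authors' deposited table. The polymerase alpha gene div-1 had 12.5 FPKM in CstF50 RNAi and 36.1 FPKM in wild type, and the helicase gene mcm-3 had 71.5 FPKM in CstF50 RNAi and 203 FPKM in wild type in the authors' deposited table. Of 22 genes for mitotic kinases, spindle checkpoint and centrosome 3 fell: the centriole assembly genes sas-5 and sas-6 and the Polo-like kinase gene plk-3. They had 16.5 (sas-5), 22.9 (sas-6) and 47.5 FPKM (plk-3) in CstF50 RNAi and 64.8, 65.4 and 155 FPKM in wild type in the authors' deposited table.

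Of the 91 genes 2 were called higher and 5 lower in B in rRNA-depleted RNA in the authors' deposited table, where 5.54% and 2.77% of all genes were. The list median of the log2 fold change was 0.02, and so was that of all genes. With limma-voom 11 of the 91 were higher and 17 lower, against 12.7% and 10.5% of all genes. Both cyb-2 cyclin genes were called lower in B. The gene cyb-2.1 had 1140 and 1089 normalized counts in the libraries of B and 1907 and 2047 in those of A (adjusted p-value 0.0134 in the authors' deposited table), and cyb-2.2 had 1535 and 1523 in B and 2495 and 2778 in A (adjusted p-value 0.0205 in the authors' deposited table). These cyclins thus went the other way from cyb-1, which had the higher values in B. The ribonucleotide reductase gene rnr-2 had 6994 normalized counts in B against 10606 in A (adjusted p-value 0.0179), and the ligase genes apc-11 (307 against 645, 0.0435) and rbx-1 (893 against 1451, 0.0203) were lower too, in the authors' deposited table. The anaphase-promoting complex gene emb-30 had 1791 in B against 1088 in A (adjusted p-value 0.0271) and the replication gene psf-1 had 909 against 517 (0.0479) in the authors' deposited table. No gene of the lists for CDK inhibitors, Wee1 and Cdc25, for Rb and E2F, or for mitotic kinases passed the authors' DESeq test there, while limma-voom called 2, 1 and 7 of them.

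**Figure D5:**
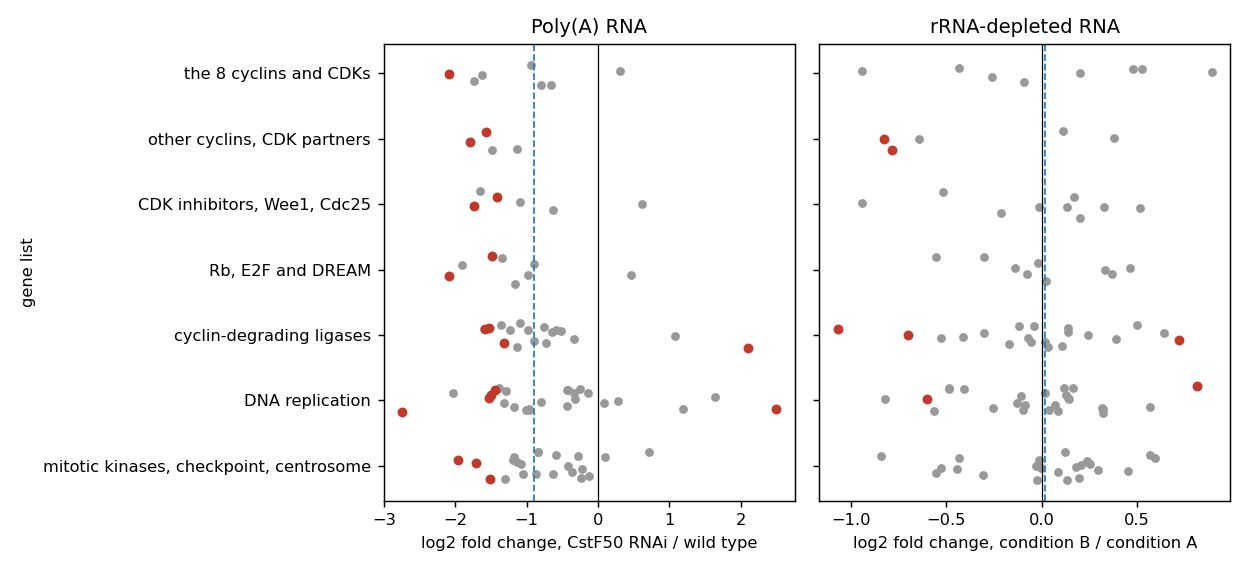
Log2 fold changes of the 8 genes and of the 6 cell cycle lists, in poly(A) RNA (CstF50 RNAi over wild type, tested genes) on the left and in rRNA-depleted RNA (condition B over condition A) on the right; red points passed the authors' test and dashed lines are the medians of all genes. The dashed lines stand at -0.90 and at 0.02, and in poly(A) RNA the points furthest to the right are lin-23 (2.102) and pri-2 (2.50).

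The genes whose pair of log2 fold changes lay nearest to the medians of the 8 genes (-0.91 in poly(A) RNA, 0.05 in rRNA-depleted RNA) were zim-3, chk-1 and wapl-1, by Euclidean distance over these 2 comparisons among 3602 named genes tested in both. Their distances were 0.0095, 0.0102 and 0.012. In the authors' deposited table chk-1, a checkpoint kinase gene, had 48.0 FPKM in CstF50 RNAi and 90.4 FPKM in wild type, and 773 normalized counts in B against 750.3 in A. As many as 56 of the 3602 genes lay within 0.1 of the same point.

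Markers of other cell types were counted in the same way, beside 3.12% of all tested genes called higher and 13.6% lower in poly(A) RNA and 5.54% higher and 2.77% lower in rRNA-depleted RNA. In the authors' deposited table for poly(A) RNA 3 of 20 germline and oocyte genes (mex-5, glp-1 and syp-2) fell and none rose, and the summed level of the 20 was 3946 FPKM in CstF50 RNAi and 7652 FPKM in wild type. The median log2 fold change of these 20 genes was -1.04, beside -0.90 for all tested genes. Relative to the median gene 0 of them were called. Of 10 tested sperm genes 6 rose, with a summed level over 16 genes of 585 FPKM in CstF50 RNAi and 75.9 FPKM in wild type, where the authors' deposited table lists spe-9 at 0. The 7 early embryo genes summed to 7.63 FPKM in CstF50 RNAi, where end-1 and med-1 were listed at 0, and to 12.6 FPKM in wild type, and the 1 of them that the authors tested did not pass. Of 8 somatic genes of muscle, intestine and yolk 5 were tested and none passed, with a sum of 13252 FPKM in CstF50 RNAi and 14898 FPKM in wild type. In rRNA-depleted RNA the germline and oocyte genes summed to 67469.9 and 71287 normalized counts in the libraries of B and to 69405 and 66808 in those of A, over 19 genes with recovered counts. There 1 of the 20, glp-1, was called higher in B and none lower. It had 4709 normalized counts in B against 2965 in A (adjusted p-value 0.0234 in the authors' deposited table). The sperm genes summed to 4881 and 7073 in B and to 185 and 297 in A, and 5 of the 16 were at 0 in both libraries of A. The early embryo genes summed to 428 and 443 in B and to 168 and 197 in A. Most of each sum came from pes-10, with 387 and 416 in B and 125 and 149 in A. Among the others, all at low counts, end-1, end-3, med-1 and med-2 had the lower mean in B. Only tbx-37 and tbx-38 of these others had the higher mean there. Of the 7 early embryo genes limma-voom called 1 higher and 2 lower in B, against 12.7% and 10.5% of all genes by that test. The lower ones were end-1, with counts of 8 and 3 in B and 9 and 4 in A, and med-2, with 2 and 0 in B and 3 and 2 in A. The authors' test called 13 sperm genes, 1 early embryo gene (pes-10) and 4 somatic genes higher in B and none of these lists' genes lower. The part of these markers in the cyclin and CDK values was not tested.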

How the data were processed

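RNA of young adult worms was sequenced in 4 groups of 2 libraries, taken from the sample titles. Per the submitters' processing notes Bowtie, DESeq and the genome build ce10 were used, and the sources used here give no version, counter or annotation. The authors deposited 1 FPKM per group for poly(A) RNA, with p-values and q-values in the layout of Cuffdiff. For rRNA-depleted RNA the authors deposited, per the file headers, a mean normalized count signal for conditions A and B, with p-values and adjusted p-values. No label says that libraries came from separate cultures, so the spread may be technical.

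Calls used a threshold of 0.05 on the q-value (poly(A)) or adjusted p-value (rRNA-depleted). Whole counts per library were recovered from the means, each a sum of 2 counts weighted by size factors (3.63 and 1.54 in B, 0.739 and 0.249 in A), for 25403 and 25479 of 25640 genes in B and A. They were tested with limma 3.58.1 in R 4.3.3. The recovery and both tests were tested on simulated data. The members and lists were chosen with earlier results of these data known. Named genes were the 8 members, cpf-1, the 3 genes nearest in fold change, and each list's called genes, at most the 4 largest fold changes. Also named, outside that rule, were genes that share a member's locus or lie next to it, called markers or markers listed at 0, cyb-2.1 in poly(A) RNA, air-1 and psf-3. Fold changes relative to the median gene were tested by a normal deviate with the implied SE.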

Additional observations from a re-analysis of the deposited data

How the results depend on the processing

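Relative to the median gene 0 of the 7 tested members and 4 of the cell cycle list (4 higher, none lower) were called in poly(A) RNA. Adjusted over all rows 5 of the list were called (2 higher, 3 lower), where untested rows enlarge the adjustment. The share of all genes called with that adjustment is not given, so the 5 are a description only. On the median scale cdk-1 and cyb-3 reversed to 0.10 and 0.23 in log2, which follows from the median of -0.90. A minimum of 1 FPKM and pseudocounts of 0.1 and 1 FPKM changed no call or direction of a member. In rRNA-depleted RNA limma-voom called 4 members with the recovered size factors, 4 with upper quartile scaling and 4 with a minimum of 10 normalized counts, against 0 by the authors' test. For the list these counts were 28 (11 higher, 17 lower), 31 (8 higher, 23 lower) and 30 (11 higher, 19 lower), against 7, and the cause was not tested. Of all genes these limma-voom settings called 5891 of 25367, 5865 of 25367 and 5552 of 15331. Leaving out each library gave 0 to 3 members, and 9 and 12 list genes without library 1 or 2 of A and 23 and 28 without library 1 or 2 of B. With a library left out 1 condition has only 1 library, so the counts of those fits are a description and no conclusion is drawn from them. The median log2 fold change of all genes was -0.11 by limma-voom, -0.18 with upper quartile scaling and 0.06 with the minimum of 10 normalized counts. The direction of all 8 members between B and A was the same under each of these limma-voom settings and relative to the median gene. No paired analysis was possible because the deposited columns carry no replicate numbers. The poly(A) values rest on 1 number per group, and the lowest recovered counts, 63 and 21 for cyd-1 in A, limit its precision.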

Other observations

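The nearest protein-coding neighbours of the 8 genes, by the authors' loci on ce10, were listed for both sides, 16 in all. The neighbour next to cye-1 at its 5' side and on the opposite strand, pqn-21, was lower in poly(A) RNA too, with 2.66 FPKM in CstF50 RNAi and 11.3 FPKM in wild type in the authors' deposited table (log2 fold change -2.09, implied SE 0.62, q-value 0.0124). The neighbour of cyb-1 at its 5' side, also on the opposite strand and 691 bases away, was orc-5, whose log2 fold change was -2.75 (implied SE 0.93) where that of cyb-1 was 0.31, both from the authors' deposited table. These pairs were singled out after their values were seen. On the 3' side of cye-1, 346 bases away on the same strand, acdh-5 had 42.0 normalized counts in B against 0.677 in A (adjusted p-value 0.0062), while cye-1 itself had 2044 against 2179, in the authors' deposited table. It too was singled out after its value was seen. W05F2.4, at the 5' side of cdk-2 on the opposite strand, also passed the authors' DESeq test (395 against 209, adjusted p-value 0.0321). The same-strand 3' neighbours T05G5.4, clik-3, ZK507.1 and grl-21 did not pass it. Leaving out genes inside a member's own locus, such as dos-1 for cya-1, the nearest 5' neighbour lay on the same strand for 0 of the 8 genes. The share of all genes for which this holds is not given, so the count is a description only.

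The loci of the 8 genes, as the authors give them on ce10 and written 1-based, were chromosome II from 12980522 to 12993050 for cyd-1, chromosome X from 13515785 to 13518834 for cdk-4, chromosome I from 6780807 to 6784535 for cye-1 and chromosome I from 3408035 to 3415072 for cdk-2. The later-acting genes lay on chromosome III from 9103904 to 9109195 for cya-1, chromosome III from 9747347 to 9748767 for cdk-1, chromosome IV from 10735304 to 10737161 for cyb-1 and chromosome V from 15395677 to 15397331 for cyb-3. The locus of cyd-1 also covers Y38F1A.12, listed at 0 FPKM in both groups in the authors' deposited table.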
